A study of Mus musculus with 18 samples.

Results

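The 8 kidneys described here were the injured controls of a mouse study of *Cxcl12* and *Myc*. They were chosen by their GEO labels alone, as the 3 kidneys labelled Cxcl12 Control and the 5 labelled Myc Control among 18 kidneys in all. The remaining kidneys came from mice in which Pax8rtTA and TetOcre had deleted *Cxcl12* or *Myc* in the kidney tubule. Cxcl12 Control mice carried CXCL12 F/F (floxed, intact *Cxcl12*) with Pax8rtTA, and Myc Control mice carried Cmyc F/F with Pax8rtTA. Neither group had TetOcre, so no gene was deleted. According to the study's methods, the animals were young adult male littermates, and the controls drank doxycycline like the knockouts, followed by a washout. The strain background was C57BL/6, and in all mice both kidneys underwent 22.5 min of ischemia followed by 12 h of reperfusion. RNA of whole kidneys was sequenced. A whole kidney mixes many cell types, so fewer cells of a type and less RNA per cell cannot be told apart. Kidneys without ischemia were not analysed here, so the values describe the injured state and no response to injury. The replicate labels do not say whether kidneys of a group came from different mice, and p-values then measure only the spread between these samples.

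Clamping the renal vessels injures mainly the proximal tubule, which reabsorbs most of the filtered solutes and runs on mitochondrial fatty acid oxidation. Injured tubule cells lose transporters and turn on a set of genes used as injury markers, among them *Havcr1*, which encodes the membrane protein KIM-1, and *Lcn2*, which encodes the secreted protein NGAL. They also release chemokines that draw neutrophils and later macrophages into the kidney. In the hours after reperfusion, immediate-early transcription factors, heat shock proteins and cytokines are part of the same stress response.

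The libraries held 14911369 to 29749500 reads on genes and detected 21645 to 22634 genes. Between 3.69% and 6.14% of the reads were unmapped. Myc Control 1 and Myc Control 3 stood apart, with 36281382 and 43000680 reads in all, against at most 25587745 in the others, and under 5% of them unmapped. Several results between the groups are also given without these 2 kidneys. Pairs of kidneys within a group differed well beyond counting noise, so none was a library deposited more than once.

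The markers of kidney cell types matched the tissue label. Levels between genes are compared as RPKM, reads scaled to exon length and to the reads on genes of each kidney. *Slc34a1*, the phosphate transporter of the proximal tubule, had a mean of 411 RPKM over the 8 kidneys. *Umod*, the secreted protein of the thick ascending limb, had 1158 RPKM, *Slc12a3*, the thiazide-sensitive cotransporter of the distal convoluted tubule, had 44.9 RPKM, and *Aqp2*, the water channel of the collecting duct, had 304 RPKM. The podocyte marker *Nphs1* was at 3.83 RPKM, *Pecam1* of endothelium at 23.4 RPKM and *Pdgfrb* of pericytes at 25.4 RPKM. The neutrophil gene *S100a8* had a mean of 33.4 RPKM, with 8.45 RPKM in Cxcl12 Control and 48.3 RPKM in Myc Control. *Adgre1* of macrophages had 1.40 RPKM and *Cd3e* of T cells 0.053 RPKM. Members of the neutrophil list spanned 0.082 (*Camp*) to 66.5 RPKM (*S100a9*). Those of the monocyte, macrophage and dendritic cell list spanned 0.230 (*Ly6c2*) to 75.1 RPKM (*Cd74*), so single markers do not rank these cell types. Defining markers of neighbouring tissues were low, with *Adipoq* of fat at 1.67 RPKM, *Ckm* of skeletal muscle at 0.249 RPKM and *Cyp11b1* of the adrenal cortex at 0.002 RPKM.

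Mitochondrial transcripts led the profile of the injured kidney. *mt-Cytb*, a subunit of respiratory complex III, was the most abundant at 13567 ± 692 RPKM (SD, n = 8). It was followed by *mt-Nd1* of complex I at 11041 ± 609 RPKM and *mt-Co1* of complex IV at 9711 ± 475 RPKM. These transcripts varied little between kidneys, and mitochondrially encoded mRNAs together took 6.49% to 7.76% of the reads on genes. The mitochondrial ribosomal RNAs did not share this steadiness. *mt-Rnr2*, the large ribosomal RNA, ranged from 3138 to 18886 RPKM, and *mt-Rnr1*, the small one, averaged 6278 ± 3260 RPKM. Together they took 0.731% to 1.29% of the reads in Cxcl12 Control kidneys and 1.29% to 4.10% in Myc Control kidneys. The mitochondrial genes *mt-Nd4l*, *mt-Co2*, *mt-Atp6* and *mt-Atp8* are listed at 0 reads in all 8 kidneys. Reads that map to several places, 16.7% to 18.1% of each library, were not counted, so these zeros do not measure expression. Of 13 mitochondrially encoded mRNAs, 7 had enough reads to be tested between the groups. The total and the ranking above thus rest on the reads that could be counted. Reads of *mt-Nd5* and *mt-Nd6*, which lie on opposite strands, were counted without strand and are uncertain.

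Among nuclear genes, secreted and proximal tubule products were the highest. *Gpx3*, the plasma glutathione peroxidase made by the proximal tubule, reached 9484 ± 1434 RPKM (SD, n = 8). *Kap*, the androgen-regulated kidney protein of the same segment, had 7676 ± 2372 RPKM and ranged from 5058 to 10724 RPKM. *Spp1* (osteopontin), a secreted phosphoprotein of injured tubules, had 7020 ± 1970 RPKM. The iron store gene *Fth1* had 1890 ± 271 RPKM and the metallothionein *Mt2* had 1611 ± 622 RPKM. *Klk1*, the tubular kallikrein, at 1020 ± 238 RPKM and *Igfbp7* at 993 ± 106 RPKM came last among the leading 20 genes.

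Those leading 20 genes held 12.8% to 16.8% of the reads on genes, and 858 to 987 genes held 50% of them. Between 13623 and 13983 genes had at least 1 CPM, the unit of reads scaled to the same total on genes in every kidney and not to gene length. The 20 tubular injury genes spanned the whole range of levels, from *Spp1* at rank 8 to *Vcam1*, a cell adhesion molecule, at rank 8967 with 3.30 ± 0.771 RPKM. *Clu* (clusterin), a secreted chaperone, ranked 32 with 616 ± 252 RPKM. *Krt20*, a keratin of injured tubule cells, ranked 36 with 580 ± 182 RPKM. *Lcn2* ranked 67 with 356 ± 169 RPKM, and *Havcr1* ranked 102 with 243 ± 104 RPKM. *Sox9*, a transcription factor of regenerating tubules, ranked 3293 with 15.8 ± 6.54 RPKM, and *Cd44*, a hyaluronan receptor, ranked 8127 with 4.24 ± 1.74 RPKM. By mean level over the 8 kidneys, *Clu* and *Krt20* stood above *Slc34a1* (rank 57). In Myc Control the group means of *Clu*, *Krt20* and *Slc34a1* were 740, 675 and 401 RPKM. In Cxcl12 Control they were 408, 422 and 427 RPKM, so the order did not hold there. *Clu* (312 to 993 RPKM) and *Krt20* (289 to 862 RPKM) varied widely between kidneys, whereas *Slc34a1* stayed between 368 and 459 RPKM.

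**Figure D1:**
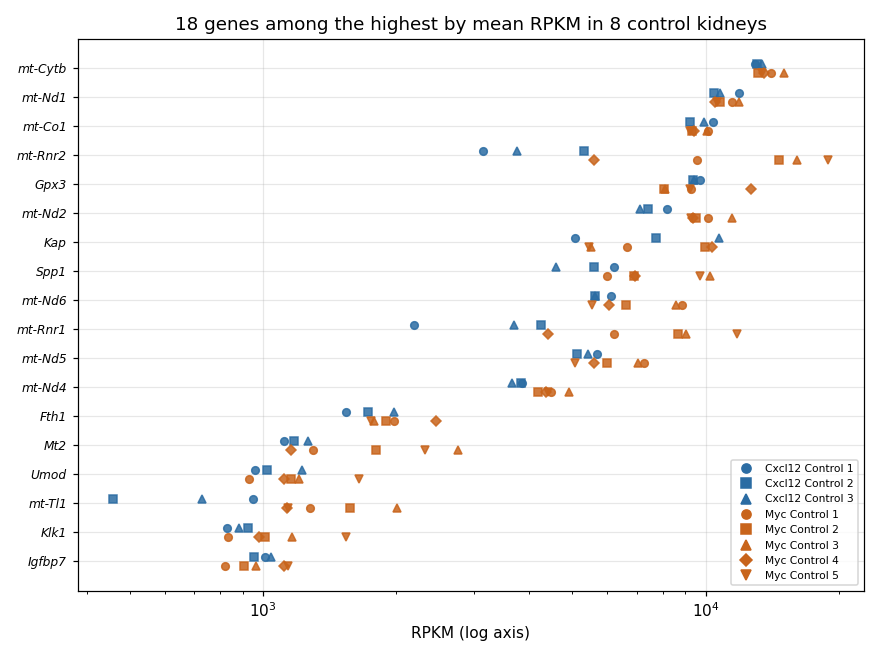
Level of 18 of the 20 genes with the highest mean RPKM in each of the 8 control kidneys (RPKM, log axis). Points are kidneys, coloured by group. *mt-Rnr2* spreads from 3138 to 18886 RPKM, whereas *mt-Cytb* stays between 12919 and 15057 RPKM.

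Spread between kidneys of a group was next described. For each gene with a mean of at least 10 CPM, the SD of log2 CPM about the group means was pooled over both groups. The median SD of these 9808 genes was 0.16 log2 units, and 175 of them (1.78%) had an SD of at least 0.5. Only 16 genes had an SD of at least 1. The median SD was 0.103 among Cxcl12 Control kidneys and 0.173 among Myc Control kidneys. The 20 most variable genes ended with *Cfd* (SD 0.949) and *Car3* (SD 0.943), and the next genes were *Apob* (SD 0.916) and *Eps8l3* (SD 0.911). These genes were selected by their spread, so their values are given as a description with no test of it. They fell into a few patterns across kidneys.

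*Sugct*, which encodes a mitochondrial CoA transferase, had the largest SD (1.94) and 2 separate levels. It had 3.08, 2.94 and 43.6 CPM in Cxcl12 Control 1 to 3. In Myc Control 1 to 5 it had 36.0, 3.21, 33.5, 3.97 and 3.36 CPM. High and low kidneys thus occurred in both groups, with no kidney between 3.97 and 33.5 CPM. In the 10 knockout kidneys *Sugct* had 27.0 to 77.7 CPM. Pseudogenes formed another pattern. *Gm13341* had 17.0 to 17.5 CPM in Cxcl12 Control kidneys, but 1.58, 15.5, 1.98, 17.4 and 18.7 CPM in Myc Control 1 to 5. *Gm13340* and *Gm5424* were likewise low in Myc Control 1 and 3, at 2.92 and 3.12 CPM and at 4.18 and 3.12 CPM, against at least 13.1 CPM in the other kidneys. Myc Control 1 and 3 are the 2 deeply sequenced libraries with few unmapped reads, and the part of this in the pattern was not tested. Pseudogene reads can be shared with their parent genes and are uncertain.

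Fatty acid metabolism set Cxcl12 Control 1 apart. *Cyp4a14*, a fatty acid hydroxylase and classic target of the nuclear receptor PPAR-alpha, had 862 CPM in Cxcl12 Control 1, 131 CPM in Cxcl12 Control 2 and 74.8 CPM in Cxcl12 Control 3. In Myc Control 1 to 5 it had 167, 44.8, 73.4, 104 and 63.1 CPM. The level in Cxcl12 Control 1 was thus more than 5 times that of the next kidney. In a list of 15 PPAR-alpha targets, 8 were highest in that kidney.

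The same kidney was at the other end for several injury and stress genes. *Areg* (amphiregulin), an EGF receptor ligand, had 1.34 CPM in Cxcl12 Control 1, against 23.3 and 18.2 CPM in Cxcl12 Control 2 and 3 and 7.15 to 22.5 CPM in Myc Control kidneys. Of 20 tubular injury genes, 9 were lowest in Cxcl12 Control 1, as were 10 of 14 immediate-early genes. The same held for 8 of 10 genes of the integrated stress response and 4 of 6 androgen-dependent tubule genes. In Cxcl12 Control 1 to 3 the centred list means were -0.387, -0.334 and -0.193 for tubular injury and -0.917, -0.657 and -0.33 for immediate-early genes. Those 2 lists were thus low in the whole group. The means were -0.736, 0.212 and 0.065 for the integrated stress response. The share of all genes lowest in this kidney is not given here. *Cyp4a12a*, an androgen-dependent arachidonic acid hydroxylase, had 4.48, 20.1 and 32.9 CPM in Cxcl12 Control 1 to 3 and 21.0 to 73.9 CPM in Myc Control kidneys. *Cyp4a12b*, of the same list, went the other way. It had 7.41, 4.64 and 3.63 RPKM in Cxcl12 Control 1 to 3 and 1.67 to 4.50 RPKM in Myc Control kidneys. How reads split between these genes was not tested. Among cell cycle genes, 10 of 13 were highest in Cxcl12 Control 1.

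Heat shock genes varied among Myc Control kidneys in particular. *Hspa1a* and *Hspa1b* are adjacent genes for near-identical inducible HSP70 chaperones. *Hspa1a* had 12.2, 24.9 and 13.5 CPM in Cxcl12 Control 1 to 3 and 127, 222, 396, 25.4 and 228 CPM in Myc Control 1 to 5. *Hspa1b* had 40, 64.2 and 42.8 CPM in Cxcl12 Control 1 to 3, and 247, 364, 648, 57.3 and 375 CPM in Myc Control 1 to 5. In both genes Myc Control 4 lay at or near the Cxcl12 Control kidneys and Myc Control 3 was highest. The copies are near-identical, so the split of their reads is uncertain. Their promoters show how alike they are. The 100 bases from 150 to 51 before the RefSeq start (GRCm38.p6, minus strand of chromosome 17) were identical in 100 of 100 positions. Capitals mark a match to GAANNTTC, the core of the heat shock element bound by HSF1, searched on both strands.

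Hspa1a, chr17:34972207-34972306: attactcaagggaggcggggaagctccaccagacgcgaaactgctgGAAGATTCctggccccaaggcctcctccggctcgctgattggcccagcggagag
Hspa1b, chr17:34959289-34959388: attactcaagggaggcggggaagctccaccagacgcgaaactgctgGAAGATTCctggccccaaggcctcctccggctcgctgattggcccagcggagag

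Each window held 1 match, and 2.39% of 32851 RefSeq promoter windows of this length held at least 1. The match describes the sequence only. The motif and genes were chosen after their values were seen.

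Blood and immune genes made up the remaining patterns. *Hbb-bs*, a beta globin, had 109.6 CPM in Myc Control 5 against 17.2 to 30.8 CPM in the other Myc Control kidneys, and 42.1, 8.83 and 19.6 CPM in Cxcl12 Control 1 to 3. *Retnlg*, a secreted neutrophil protein, had 2.29 to 3.22 CPM in Cxcl12 Control kidneys and 3.24, 17.5, 40.3, 6.49 and 15.3 CPM in Myc Control 1 to 5. *Ccl6*, a myeloid chemokine, had 4.62 to 6.16 CPM in Cxcl12 Control kidneys and 2.37, 22.6, 22.2, 15.3 and 16.4 CPM in Myc Control 1 to 5. For both genes, Myc Control 1 was the lowest kidney of its group. *Hp* (haptoglobin), the hemoglobin scavenger, reached 99.9 CPM in Myc Control 3, whereas the other 7 kidneys had 11.0 to 36.6 CPM. Of the other variable genes, *Fam213b* ranged from 6.55 to 62.7 CPM, the mucin *Muc4* from 2.98 to 18.9 CPM, *Hpd* from 2.27 to 21.1 CPM, the adipocyte protease *Cfd* from 3.20 to 27.7 CPM and the carbonic anhydrase *Car3* from 3.20 to 39.7 CPM.

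**Figure D2:**
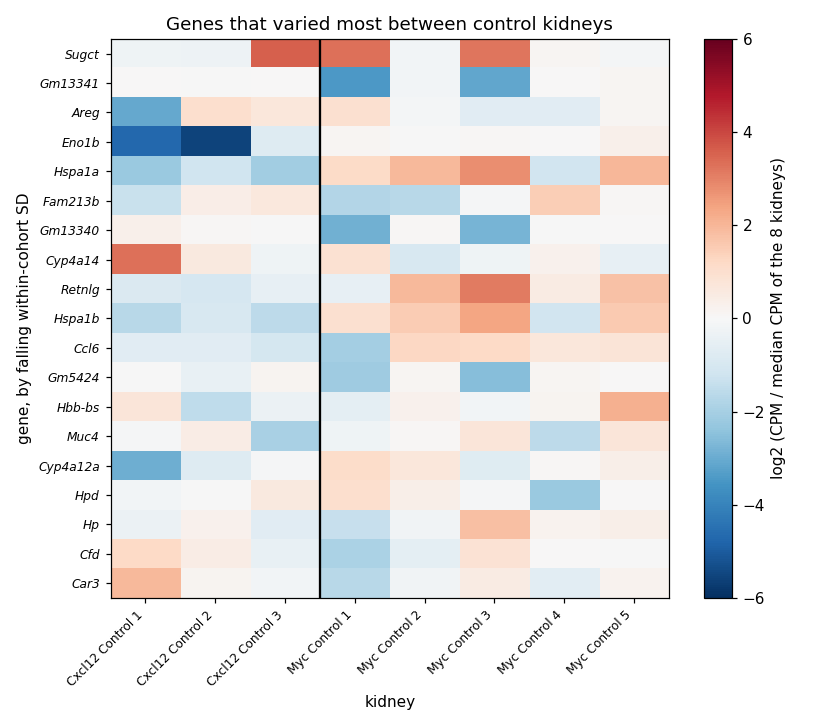
Of the 20 genes with the largest SD within groups, 19 are shown (rows), each as log2 of CPM over the gene's median CPM in the 8 control kidneys (columns, colour scale in log2 units). *Cyp4a14* stands out in Cxcl12 Control 1, and the pseudogenes *Gm13341*, *Gm13340* and *Gm5424* are low in Myc Control 1 and 3.

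After removal of the group means, the leading principal component held 37.8% of the variance and set Myc Control 4 (0.712) against Myc Control 3 (-0.601). The next component, with 25.4%, set Myc Control 1 (0.818) against Myc Control 5 (-0.483). The one after that, with 14.9%, separated Cxcl12 Control 1 (0.707) from Cxcl12 Control 3 (-0.611). Gene lists described the same kidneys. Myc Control 3 was the highest kidney for 12 of 14 immediate-early, 9 of 10 neutrophil and 8 of 11 heat shock genes. Myc Control 4 was the lowest for 7 of 12 collecting duct and 5 of 8 podocyte genes. Myc Control 5 was the highest for 7 of 12 collecting duct and 5 of 6 erythroid genes. Myc Control 1 was the highest kidney for 14 of 14 interferon-stimulated genes. *Isg15*, a ubiquitin-like protein of the interferon response, had 15.6 CPM there against 2.67 to 4.48 CPM in the other 7 kidneys.

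**Figure D3:**
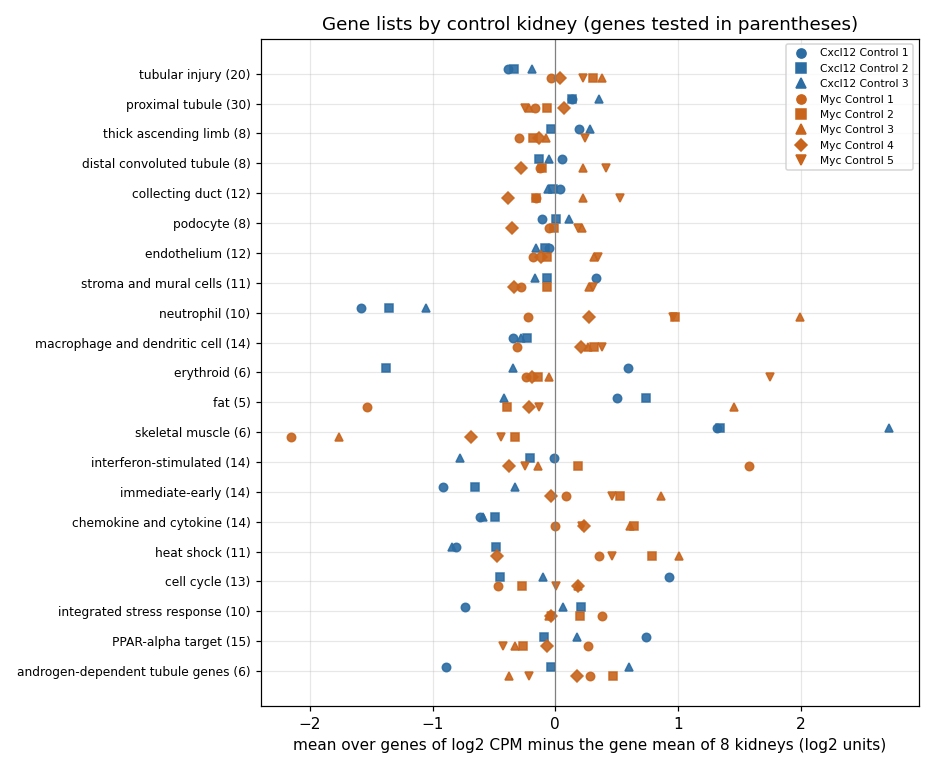
Mean of log2 CPM, centred per gene on the 8 kidneys, over the tested members of 21 gene lists (rows, number of genes in parentheses). Each point is a control kidney, coloured by group (horizontal axis in log2 units). Interferon-stimulated genes reach 1.58 in Myc Control 1, and neutrophil, immediate-early and heat shock genes are highest in Myc Control 3.

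How injury genes varied with tubule genes was examined over the 8 kidneys for 15 pairs. *Havcr1*, *Lcn2* and *Krt20* were each paired with *Slc34a1*, *Umod*, *Slc12a3* and *Aqp2* and with each other. Pearson correlations of log2 CPM were tested by exact two-sided permutation over all 40320 pairings, with Benjamini-Hochberg adjustment over the 15 pairs. *Havcr1* had 556, 677 and 668 CPM in Cxcl12 Control 1 to 3 and 609, 635, 215, 922 and 209 CPM in Myc Control 1 to 5. Myc Control 3 and 5 thus lay apart from the other 6 kidneys, which held 556 to 922 CPM. *Slc12a3* had 512, 459.5 and 448 CPM in Cxcl12 Control 1 to 3 and 453, 467, 602, 364 and 687 CPM in Myc Control 1 to 5. The kidneys lowest in *Havcr1* were highest in *Slc12a3*, and Myc Control 4, highest in *Havcr1*, was lowest in *Slc12a3*.

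This was the only one of the 15 pairs to pass, with r = -0.95 (exact permutation p = 0.000273, adjusted p = 0.00409, n = 8). Spearman's rho was -0.88 (exact permutation p = 0.00724, adjusted p = 0.109). Because Myc Control 3 and 5 formed a separate cluster, the value within the other 6 kidneys is the relevant check. Without them r was -0.97 (exact permutation p = 0.0153, adjusted p = 0.115) and rho was -0.71 (exact permutation p = 0.136). Within Myc Control alone r was -0.97 (exact permutation p = 0.0167, n = 5), and after centring on the group means it was -0.97 (exact permutation p = 0.00556, adjusted p = 0.0833). Without Myc Control 1 and 3 it was -0.97 (exact permutation p = 0.00278, adjusted p = 0.0417). The slope was thus negative in each of these subsets, while the adjusted p passed 0.05 in some of them and not in others.

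The other pairs did not pass. *Havcr1* and *Slc34a1* gave r = 0.75 (exact permutation p = 0.0127, adjusted p = 0.0956, n = 8) and 0.45 without Myc Control 3 and 5. *Havcr1* and *Lcn2*, both injury markers, gave r = -0.75 (exact permutation p = 0.0319, adjusted p = 0.159, n = 8). Without Myc Control 3 and 5 it was 0.04 over kidneys of both groups. After centring on the group means of all 8 kidneys r was -0.87 (exact permutation p = 0.0319, adjusted p = 0.233), and within Myc Control it was -0.94 (exact permutation p = 0.0333, n = 5). *Lcn2* had 477, 494 and 623 CPM in Cxcl12 Control 1 to 3 and 995, 1083, 1685, 700.2 and 1415 CPM in Myc Control 1 to 5, so that the kidneys lowest in *Havcr1* were highest in *Lcn2*. *Krt20* had 558, 767 and 1116 CPM in Cxcl12 Control 1 to 3 and 1308, 1661, 1263, 1327 and 947 CPM in Myc Control 1 to 5, and its r with *Havcr1* was 0.06 (exact permutation p = 0.898, adjusted p = 0.898, n = 8). Within the groups that r was higher, at 0.67 in Myc Control (exact permutation p = 0.208, n = 5) and 0.49 after centring on the group means (exact permutation p = 0.0931, adjusted p = 0.233, n = 8), and did not pass.

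As a description over the same 8 kidneys, with no test, the sign of r with *Havcr1* was counted over whole lists. All 8 distal convoluted tubule, 12 of 12 endothelial, 8 of 8 podocyte and 11 of 11 stromal genes had a negative r. The same held for 11 of 12 collecting duct, 6 of 8 thick ascending limb and 15 of 19 tubular injury genes. These counts include Myc Control 3 and 5 and are not given without them. The centred list means were highest in those 2 kidneys for endothelial (0.315 and 0.348) and distal convoluted tubule genes (0.227 and 0.416), so 2 kidneys can set many of the signs. Of 30 proximal tubule genes, 24 had a positive r. For *Lcn2*, 24 of the 30 proximal tubule genes had a negative r. Of the neutrophil genes 10 of 10, of the heat shock genes 11 of 11 and of the immediate-early genes 14 of 14 had a positive r. These r were not centred on the group means. *Lcn2* did not overlap between the groups, and every tested member of these 3 lists had a positive difference, Myc Control minus Cxcl12 Control. The signs therefore do not separate the difference between groups from variation between kidneys of a group. Among all genes tested, 7341 of 15275 had a negative r with *Havcr1* and 7495 of 15275 a positive r with *Lcn2*. The genes of a list share libraries and cells and are not independent.

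**Figure D4:**
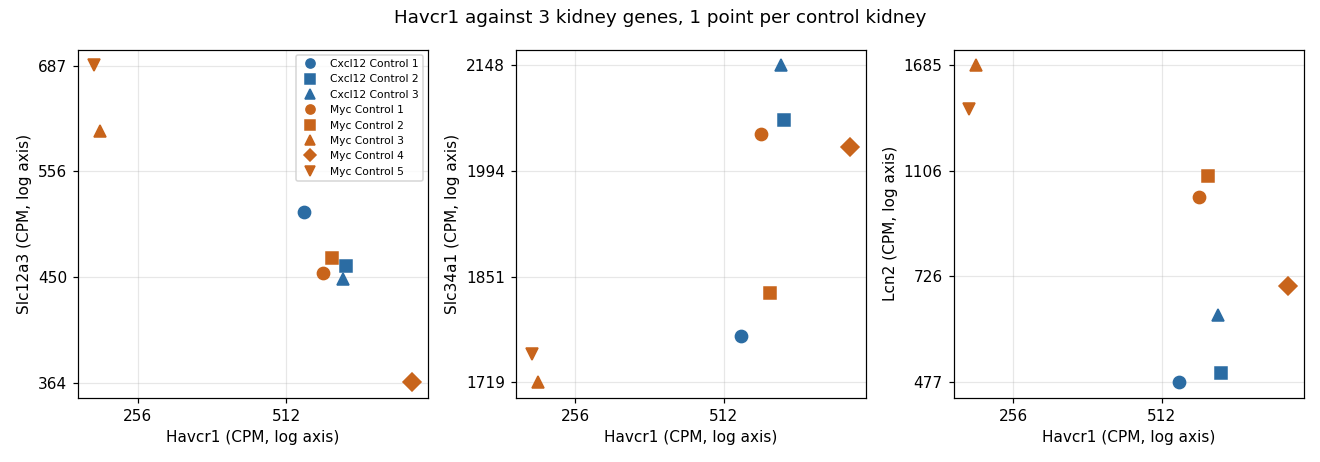
*Havcr1* (CPM, horizontal log axis) against *Slc12a3*, *Slc34a1* and *Lcn2* (CPM, vertical log axes) in the 8 control kidneys, with colours for groups and symbols for replicates. Myc Control 3 and 5, at 215 and 209 CPM of *Havcr1*, lie apart from the other 6 kidneys. *Slc12a3* falls with *Havcr1* (r = -0.95). Among those 6 kidneys *Lcn2* gives r = 0.04, with the groups at separate levels of *Lcn2*.

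Myc Control was then compared with Cxcl12 Control, the same injury in mice of separate crosses. The groups differed in the floxed gene and the cross. Surgery days and library batches are not given in the sources used here, although the study's methods name a batch correction (ComBat), so a batch that differs between the groups and the cross cannot be told apart. With edgeR's quasi-likelihood test, 202 of 15276 genes tested (1.32%) had a Benjamini-Hochberg adjusted p under 0.05. Of these, 106 (0.694%) were higher and 96 (0.628%) lower in Myc Control. At an unadjusted p under 0.05 there were 2514 genes (16.5%), and in 1849 genes (12.1%) the groups did not overlap (6.68% higher and 5.43% lower in Myc Control). All 202 genes that passed were among the latter. The shares of 1.32% that passed and 12.1% without overlap are the background for the list counts below. The number of genes that passed depended on single kidneys, being 31, 23 and 62 without Cxcl12 Control 1, 2 and 3. Without Myc Control 1 to 5 it was 496, 54, 95, 523 and 92. Without both Myc Control 1 and 3 it was 272 of 15042 (1.81%), and 144 of the 202 genes were among them.

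The floxed genes themselves did not pass. *Cxcl12* (chr6:117168535-117181367, GRCm38), the chemokine, had 55.8, 61.3 and 45.6 CPM in Cxcl12 Control 1 to 3 and 49.8, 48.1, 45.6, 30.5 and 43.5 CPM in Myc Control 1 to 5. Its log2 difference, Myc Control minus Cxcl12 Control, was -0.32 (SE 0.155, adjusted p = 0.339). *Myc* (chr15:61985391-61990374), the transcription factor, had 76.4, 110.4 and 87.7 CPM in Cxcl12 Control 1 to 3 and 120.2, 94.7, 88.1, 101 and 80.6 CPM in Myc Control 1 to 5, a log2 difference of 0.08 (SE 0.148, adjusted p = 0.818). Both genes overlapped between the groups.

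Near the floxed loci a few genes passed. Within 10 Mb of *Cxcl12*, 4 of 171 genes tested (2.34%) passed. *Itpr1*, the IP3 receptor of the endoplasmic reticulum, was lower in Myc Control (log2 difference -0.62, SE 0.125, adjusted p = 0.0458), as was *Slc6a13*, a GABA and taurine transporter (-0.74, SE 0.137, adjusted p = 0.0326). The tetraspanin gene *Cd9* (0.77, SE 0.149, adjusted p = 0.0373) and *Csgalnact2*, an enzyme of chondroitin sulfate synthesis (0.45, SE 0.0917, adjusted p = 0.0479), were higher. Within 10 Mb of *Myc*, 2 of 60 genes (3.33%) passed. *Deptor*, an inhibitor of mTOR, had 119 to 135 CPM in Cxcl12 Control and 68.7 to 93.6 CPM in Myc Control (log2 difference -0.70, SE 0.117, adjusted p = 0.0234), and *Fam49b* was higher (0.48, SE 0.0991, adjusted p = 0.0480). None of the 171 genes near *Cxcl12* or the 60 near *Myc* would have passed without Cxcl12 Control 1, without Cxcl12 Control 2 or without Myc Control 2, where 24 to 27 had an unadjusted p under 0.05.

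Neutrophil genes were the list with the largest share higher in Myc Control. Of 10 tested, 4 rose and none fell, all 10 had a positive difference, and the median log2 difference was 2.4 against 0.005 over all genes. *S100a8*, a calcium-binding alarmin of neutrophils, had 5.88, 5.40 and 6.32 CPM in Cxcl12 Control 1 to 3 and 13.7, 36.4, 60.3, 21.0 and 36.3 CPM in Myc Control 1 to 5 (5.73-fold, log2 SE 0.435, adjusted p = 0.0254). Its partner *S100a9* had 6.5 to 11.4 CPM against 19.3 to 85.2 CPM (5.31-fold, adjusted p = 0.0311). *Mmp9*, a gelatinase of neutrophil granules, had 1.79 to 2.37 CPM against 5.41 to 19.1 CPM (5.10-fold, adjusted p = 0.0234). *Il1r2*, the decoy receptor for interleukin 1, had 1.29 to 2.34 CPM against 4.42 to 34.2 CPM (7.99-fold, adjusted p = 0.0479). The summed level of the list was 25.1 to 35.3 CPM in Cxcl12 Control kidneys and 63.6 to 333 CPM in Myc Control kidneys, with no overlap. The number of these genes that passed was 0 without any 1 of Cxcl12 Control 1, 2 or 3 or Myc Control 2, where 9 to 10 had an unadjusted p under 0.05, 1 without Myc Control 5, and 9 without both Myc Control 1 and 3. None passed with limma-voom, where 9 had an unadjusted p under 0.05, and 9 passed with DESeq2.

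Of 14 chemokine and cytokine genes tested, 5 rose and none fell, 13 had a positive difference, with a median log2 difference of 0.58. *Cxcl2*, a ligand of the neutrophil receptor CXCR2, had 1.96, 4.42 and 5.89 CPM in Cxcl12 Control 1 to 3 and 20.2, 42.9, 55.8, 23.1 and 24.4 CPM in Myc Control 1 to 5 (8.18-fold, log2 SE 0.441, adjusted p = 0.0140). *Cxcl1*, a ligand of the same receptor, had 32.5 to 68.8 CPM against 79.6 to 147 CPM (2.38-fold, adjusted p = 0.0398). *Cxcl3*, a further ligand outside the list, had 0.327 to 0.729 CPM against 1.30 to 12.9 CPM (14.3-fold, adjusted p = 0.0447). The groups did not overlap for any of the 3 ligands, although *Cxcl3* was low in every kidney. Members of the interleukin 6 family passed as well: *Il6* was 3.83-fold higher (adjusted p = 0.0311), *Il11* 2.4-fold (adjusted p = 0.0376) and *Lif* 1.92-fold (adjusted p = 0.0479). Without Cxcl12 Control 1 or without Cxcl12 Control 2, 0 of the 14 passed, with 6 to 7 at an unadjusted p under 0.05.

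The promoters of the neighbouring genes *Cxcl1* and *Cxcl2* are shown because both ligands rose. The windows again run from 150 to 51 before the RefSeq start (GRCm38.p6, plus strand). Capitals mark matches to a form of the kappa B element bound by NF-kappa B (GGG, any 2 bases, then TTTCC) on either strand.

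Cxcl1, chr5:90891095-90891194: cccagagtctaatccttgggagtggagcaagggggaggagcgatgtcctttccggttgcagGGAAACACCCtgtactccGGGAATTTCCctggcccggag
Cxcl2, chr5:90903749-90903848: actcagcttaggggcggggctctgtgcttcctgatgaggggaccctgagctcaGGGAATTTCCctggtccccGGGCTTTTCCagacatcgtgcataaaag

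Each window held 2 matches, none overlapping another, and 0.566% of the 32851 promoter windows held at least 1. The genes and the motif were chosen with values known, and a match says nothing of binding in these kidneys.

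Of 14 monocyte, macrophage and dendritic cell genes tested, 2 rose and none fell, with a median log2 difference of 0.51. The number that passed was 0 without any 1 of Cxcl12 Control 1, 2 or 3 or Myc Control 2 (5 to 6 at an unadjusted p under 0.05), 1 without Myc Control 3, 5 without Myc Control 1 and 4 without both Myc Control 1 and 3. *Itgam*, the integrin alpha M of neutrophils and macrophages, had 10.5 to 12.9 CPM against 22.7 to 45.1 CPM (2.55-fold, adjusted p = 0.0254), and *Ccr2*, the monocyte chemokine receptor, had 4.19 to 5.07 CPM against 6.06 to 8.61 CPM (1.70-fold, adjusted p = 0.0495). *Slfn4*, a schlafen gene of myeloid cells, had 1.64 to 2.56 CPM against 9.32 to 23.7 CPM (7.97-fold, adjusted p = 0.00410), and passed in all 8 fits that left out 1 kidney. *Saa3*, an acute-phase protein, had 0.164 to 0.504 CPM against 2.04 to 7.81 CPM (adjusted p = 0.0307). *Dcn* (decorin) was the only one of 11 stromal genes to pass (1.70-fold higher, adjusted p = 0.0498). The stromal median log2 difference was -0.17, and 0.11 without Cxcl12 Control 1.

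Of 14 immediate-early genes, 3 rose, all 14 had a positive difference, and the median log2 difference was 0.91. The number that passed was 1 without Cxcl12 Control 1, without Cxcl12 Control 2 or without Myc Control 2, 6 without Myc Control 1, 7 without Myc Control 4 and 2 or 3 without any 1 of the others. Without both Myc Control 1 and 3 it was 5. *Fos*, a subunit of the AP-1 factor, had 14.1, 16.1 and 19.7 CPM in Cxcl12 Control 1 to 3 and 37.6, 66.7, 79.5, 66.3 and 68.4 CPM in Myc Control 1 to 5 (3.83-fold, log2 SE 0.226, adjusted p = 0.00410), and passed in all 8 fits that left out 1 kidney. *Egr1*, a zinc finger transcription factor, was 2.67-fold higher (adjusted p = 0.0286) and *Zfp36*, a factor that destabilises cytokine mRNAs, 1.93-fold higher (adjusted p = 0.0283). Of 11 heat shock genes, 2 rose, all 11 had a positive difference, and the median log2 difference was 1.04. *Hspa1a*, with the values given above, was 11.8-fold higher (log2 SE 0.728, adjusted p = 0.0479), and *Hspb1*, the small heat shock protein HSP27, was 2.38-fold higher (adjusted p = 0.0479). *Hspa1b* was 6.90-fold higher with an adjusted p of 0.0591, just short of the threshold. No heat shock gene passed without Myc Control 1 and 3, where 9 had an unadjusted p under 0.05 and the adjusted p of *Hspa1a* was 0.0665. The same held without any 1 of Cxcl12 Control 1, 2 or 3 or Myc Control 2, 3 or 5 (9 to 10 at an unadjusted p under 0.05), whereas 9 passed without Myc Control 4.

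Tubular injury genes gave 1 call. Of 20 tested, 17 had a positive difference, the median log2 difference was 0.44, and *Sprr2f* passed. *Sprr2f*, a small proline-rich protein of stressed epithelia, had 8.23, 5.78 and 4.68 CPM in Cxcl12 Control 1 to 3 and 34.0, 30.4, 92.1, 25.1 and 65.6 CPM in Myc Control 1 to 5 (7.94-fold, log2 SE 0.468, adjusted p = 0.0197). It did not pass without any 1 of Cxcl12 Control 1, 2 or 3 (adjusted p between 0.0743 and 0.0995), and without Cxcl12 Control 1 or 2 none of the 20 did (6 at an unadjusted p under 0.05). *Lcn2* was 2.21-fold higher with no overlap of the groups but an adjusted p of 0.0595. *Clu* (adjusted p = 0.131), *Krt20* (adjusted p = 0.170), *Spp1* (adjusted p = 0.212) and *Havcr1* (adjusted p = 0.781) did not pass. Of 30 proximal tubule genes, 27 had a negative difference, with a median log2 difference of -0.27. Among them *Slc7a7*, a basolateral amino acid transporter, fell from 91.1 ± 16.6 CPM (SD, n = 3) to 56.7 ± 5.26 CPM (SD, n = 5; adjusted p = 0.0286), and *Pdzk1*, a scaffold of brush border transporters, from 197 ± 9.55 CPM (SD, n = 3) to 139 ± 13.1 CPM (SD, n = 5; adjusted p = 0.0351). Without Cxcl12 Control 1, Cxcl12 Control 2, Myc Control 3 or Myc Control 5, each left out alone, 0 of the 30 passed (9 to 10 at an unadjusted p under 0.05), whereas 5 passed without Myc Control 1 and 8 without Myc Control 4. *Cldn10*, a claudin of tight junctions, was the only one of the 8 genes of the thick ascending limb list to pass (log2 difference -0.69, adjusted p = 0.0373). The list's median log2 difference was -0.28, and counts per gene in a whole kidney do not say which segment they came from. No gene of the distal convoluted tubule (8 tested), collecting duct (12 tested) or podocyte (8 tested) list passed, with median log2 differences of 0.10, 0.16 and 0.03. Without Myc Control 5 these medians were -0.01, -0.003 and -0.02. The neutrophil list summed to more in every Myc Control kidney, as given above, and its part in these tubule values was not tested.

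Of 6 skeletal muscle genes tested, 4 fell, against 0.628% of all genes tested. All 6 were lower in Myc Control with no overlap of the groups, against 5.43% of all genes tested. The median log2 difference was -3.55. *Ckm*, muscle creatine kinase, had 1.51, 1.25 and 2.61 CPM in Cxcl12 Control 1 to 3 and 0, 0.268, 0.104, 0 and 0.0600 CPM in Myc Control 1 to 5 (adjusted p = 0.0142). *Acta1*, skeletal alpha actin, had 2.63 to 7.41 CPM against 0.0395 to 1.20 CPM (adjusted p = 0.0479). *Myh4*, a fast myosin heavy chain, had 2.97 to 11.4 CPM against 0 to 0.660 CPM (adjusted p = 0.0275), and *Tnnt3*, fast troponin T, 1.12 to 3.65 CPM against 0 to 0.30 CPM (adjusted p = 0.0293). *Atp2a1*, the calcium pump of fast muscle and outside the list, had 2.69 to 7.17 CPM against 0.118 to 0.693 CPM (adjusted p = 0.0111). The list summed to 10.1 to 30 CPM in Cxcl12 Control kidneys, highest in Cxcl12 Control 3, and to 0.513 to 2.95 CPM in Myc Control kidneys. Without any 1 Cxcl12 Control kidney 0 of the 6 passed, although all 6 kept an unadjusted p under 0.05.

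Further differences passed in metabolic and rhythm genes. *Egln3*, the oxygen-sensing prolyl hydroxylase PHD3, had 20.4, 23.4 and 20.6 CPM in Cxcl12 Control 1 to 3 and 8.76, 8.37, 9.58, 6.99 and 8.58 CPM in Myc Control 1 to 5 (log2 difference -1.34, SE 0.120, adjusted p = 0.000980). It was the only one of 14 hypoxia genes to pass, and the list's median log2 difference was 0.03. Of 19 circadian clock genes, 2 fell. *Hlf*, a clock output transcription factor, had 62.1, 65.5 and 66.3 CPM against 39.5, 33.9, 33.7, 28.8 and 33.9 CPM (log2 difference -0.93, SE 0.0992, adjusted p = 0.00304), and *Per2*, a core clock repressor, had 39.8 to 55.7 CPM against 31.2 to 36.9 CPM (log2 difference -0.56, SE 0.115, adjusted p = 0.0480). The list's median log2 difference was 0.09, but -0.02 without Myc Control 1 and 3. *Hlf* and *Egln3* passed in all 8 fits that left out 1 kidney. *Kynu*, kynureninase of tryptophan breakdown, *Ces1g*, a carboxylesterase, *Serpina1d*, an alpha-1 antitrypsin, *Slc22a26*, an organic anion transporter, *Slc6a4*, the serotonin transporter, and *Snx31*, a sorting nexin, also fell, by 1.62 to 2.28 on the log2 scale, with adjusted p between 0.0234 and 0.0421.

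Interferon-stimulated genes gave no call. All 14 had a positive difference with a median log2 difference of 0.74, which became 0.16 without Myc Control 1 and 3. None of the 15 PPAR-alpha targets (median -0.30), 13 cell cycle genes (median -0.36, but 0.19 without Cxcl12 Control 1), 8 NRF2 targets (median 0.29), 10 p53 targets (median -0.002), 10 genes of the integrated stress response (median 0.16, but -0.02 without Cxcl12 Control 1), 12 genes of cholesterol synthesis (median -0.06) or 12 complement and coagulation genes (median 0.27) passed. Likewise none passed in the endothelial (12 tested, median 0.26) or urothelial (6 tested, median 0.28) lists. The same held for the androgen-dependent (6 tested, median -0.02, but 0.42 without Cxcl12 Control 3) and mitochondrially encoded lists (7 tested, median 0.19, but 0.03 without Myc Control 1 and 3). None of 6 erythroid genes tested passed (median 0.84, but 0.145 without Myc Control 5 and 1.59 without Cxcl12 Control 1). None of 5 fat genes tested passed (median -0.42, but -0.145 without Cxcl12 Control 1 and -1.02 without Myc Control 3). Only 1 of 12 lymphocyte and 1 of 9 adrenal gland genes were expressed enough to be tested, and neither passed. None of 4 genes that check the sex of the mice or of 2 that tell C57BL/6 substrains apart passed. In all, 28 of the 342 list genes tested passed, beside 202 of all 15276 genes tested (1.32%). The lists were chosen with earlier results of these data known, so the share in lists is a description only.

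Several of the largest differences were in pseudogenes and predicted transcripts. *Gm28438*, an unprocessed pseudogene on chromosome 1, had 10.7, 8.12 and 11.5 CPM in Cxcl12 Control 1 to 3 and 0.0694 to 0.201 CPM in Myc Control kidneys (log2 difference -6.22, SE 0.267, adjusted p = 3.12e-06). *Acp1*, a low molecular weight phosphatase, had 22.5 to 26.4 CPM against 3.72 to 6.69 CPM (log2 difference -2.25, SE 0.180, adjusted p = 0.000458), and *Gm10516*, an antisense transcript counted without strand, 3.60 to 4.68 CPM against 0.937 to 1.32 CPM (log2 difference -1.79, SE 0.205, adjusted p = 0.00396). In the other direction, *Eif3s6-ps2* had 0.0608 to 0.218 CPM against 4.14 to 6.49 CPM (adjusted p = 0.000159) and *Gm6472* had 0.728 to 0.851 CPM against 10.9 to 30.6 CPM (24.6-fold, adjusted p = 0.000980). *Gm4989* had 0 to 0.182 CPM against 1.86 to 2.80 CPM (adjusted p = 0.00396). *Coch* (cochlin), an extracellular matrix protein, had 0.448 to 0.911 CPM against 7.53 to 21.2 CPM (18.7-fold, adjusted p = 0.00211). These 7 genes passed in all 8 fits that left out 1 kidney. *Gm4742* had 0.273 to 0.365 CPM against 1.54 to 7.31 CPM (13.4-fold, adjusted p = 0.0285). Of the 202 genes that passed, 187 are annotated as protein-coding and 6 as pseudogenes.

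Some genes named above no longer passed without Myc Control 1 and 3, with adjusted p between 0.0503 (*Slc6a4*) and 0.110 (*Ccr2*). They were *Cxcl1*, *Lif*, *Hspa1a*, *Hspb1*, *Ccr2*, *Dcn*, *Pdzk1*, *Cldn10*, *Per2*, *Tnnt3*, *Csgalnact2*, *Fam49b*, *Kynu*, *Ces1g*, *Slc22a26* and *Slc6a4*. Their differences kept the same sign.

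A near-identical pair behaved in opposite ways. *Eno1b*, among the 20 most variable genes, had 0.672, 0.382 and 10.3 CPM in Cxcl12 Control 1 to 3 and 17.6 to 21.7 CPM in Myc Control kidneys (adjusted p = 0.144). *Eno1*, the glycolytic enolase that is its near-identical copy, had 193, 149 and 119.9 CPM in Cxcl12 Control 1 to 3 and 53.5 to 69.4 CPM in Myc Control kidneys (log2 difference -1.30, SE 0.144, adjusted p = 0.00387). Only reads that map to 1 place were counted, so the split of reads between these copies is uncertain and neither value stands for the enzyme.

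**Figure D5:**
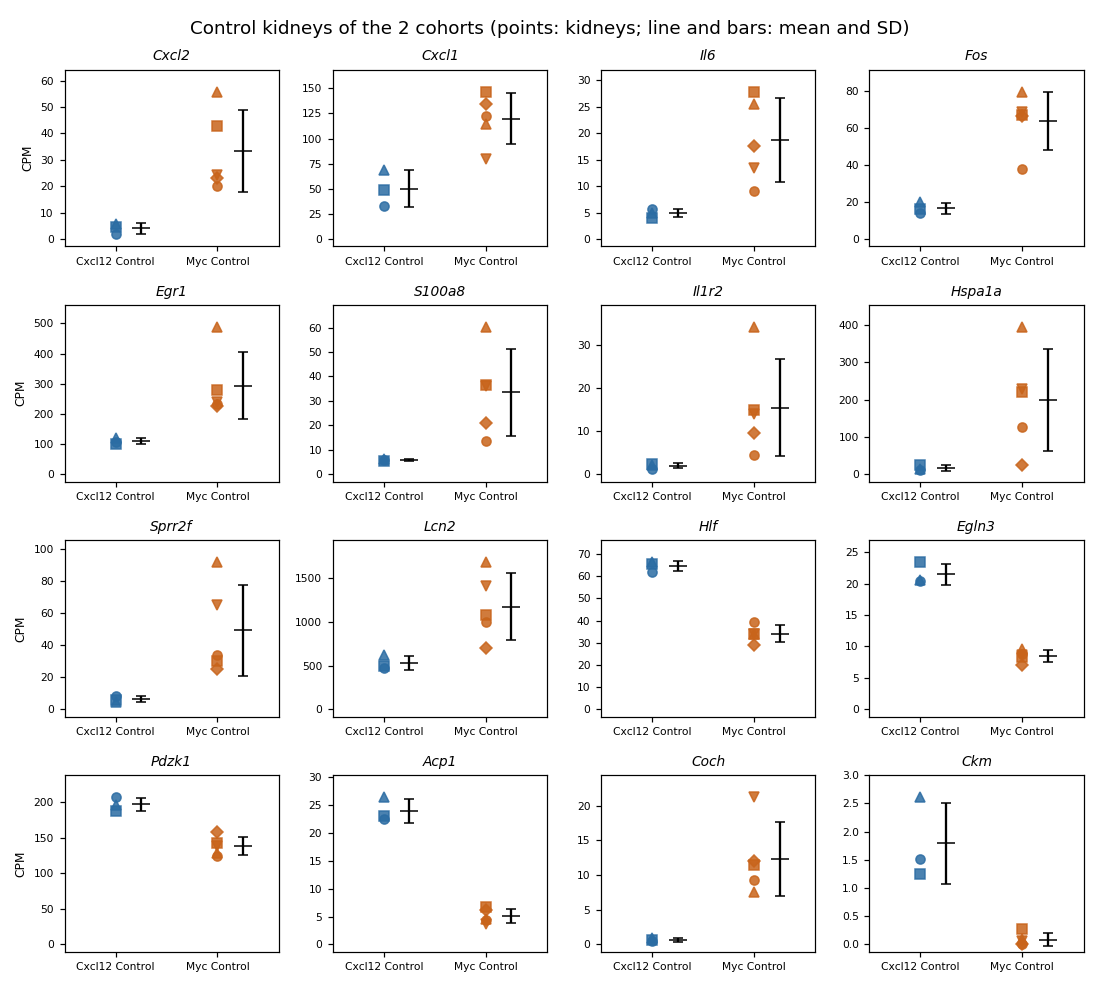
CPM (linear axes) of 16 genes in the 3 Cxcl12 Control and 5 Myc Control kidneys, with 1 point per kidney and the mean and SD of each group beside it. The groups do not overlap for any gene shown, including *Lcn2*, which did not pass the test.

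The knockout kidneys of the same crosses were set beside these genes. Between the 5 Myc KO and 5 Cxcl12 KO kidneys, 10.4% of all genes tested did not overlap, with both directions counted together. The share in each direction is not given here. Among the 202 genes that passed between controls, 44 of the 106 higher ones and 14 of the 96 lower ones did not overlap between the knockouts in the same direction, and 0 did so in the opposite direction. Of the 24 genes with the largest differences, 12 each way, 12 did so (7 higher, 5 lower). *Gm28438* had 7.88 to 10.7 CPM in Cxcl12 KO and 0 to 0.225 CPM in Myc KO kidneys, *Acp1* had 21.3 to 26.3 CPM and 3.77 to 5.06 CPM, and *Coch* had 0.333 to 0.720 CPM and 8.75 to 17.4 CPM. These genes thus differed between the crosses in knockout as well as control kidneys. *Cxcl2* had 7.16 to 26.5 CPM in Cxcl12 KO and 36.3 to 61.2 CPM in Myc KO kidneys. *Hspa1a* overlapped, with 12.2 to 299 CPM and 212 to 628 CPM. The muscle genes did not repeat: *Myh4* had 0 to 1.18 CPM in Cxcl12 KO and 0 to 3.38 CPM in Myc KO kidneys, and *Acta1* 0.0758 to 2.17 CPM and 0.183 to 2.76 CPM.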

How the data were processed

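Gene counts were deposited by the authors for each kidney as STAR tables. Per the labels, reads were processed with Trimmomatic 0.32 and STAR 2.4.0 against GRCm38. Deposited counts are raw, and the column without strand was used, since the strand columns held near-equal reads (51.8% to 52.8%). Rows naming no gene (29.4% to 32.2% of reads) were left out. Of 45706 genes, 45143 had a name in GENCODE vM21, whose exons gave lengths.

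CPM (prior count of 2 on the log2 scale) and RPKM were computed. Myc Control was compared with Cxcl12 Control by edgeR 4.0.16 (TMM, filterByExpr, quasi-likelihood F-test, R 4.3.3) with Benjamini-Hochberg adjustment. On simulated data (15044 genes), 78.1% of genes with a log2 change of 1 and 97.9% with 2 were recovered. Of 178 calls in that run, 9 were false calls. Recovery of differences of these sizes in the kidneys themselves was not tested. There the number of genes that passed ranged from 23 to 523 when 1 kidney was left out. DESeq2 1.42.0 and limma 3.58.1 were alternatives. The authors corrected batches with ComBat, but which kidneys shared a batch is not given, so none was fitted. Promoters were taken from RefSeq.

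Named genes were the 20 highest by RPKM, the 20 most variable, the 12 largest differences each way (mean of at least 1 CPM, no overlap), the floxed genes and called neighbours, the pairs, and per list the members that passed and the strongest and highest ones. The kidneys and the 34 lists (378 members, all matched) were chosen with earlier results of these data known. A few genes that these rules name are not reported here.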

Additional observations from a re-analysis of the deposited data

Results flagged for a closer look

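In 3 of 73 gene values checked among the 5 Myc Control kidneys, 1 kidney lay far from the other 4 (Dixon's test at the 95% level). Chance gives such a gap in about 1 in 20 groups when genes are not chosen by their values. *Hbb-bs* and *Hp* were described above among the genes selected by their spread. That rate does not apply to them, and the check is a description only. *Gpx3* had 23006 CPM in Myc Control 4 against 14614 to 16847 CPM in the others. *Hbb-bs* had 109.6 CPM in Myc Control 5 against 17.2 to 30.8 CPM. *Hp* had 99.9 CPM in Myc Control 3 against 11.0 to 36.6 CPM. The 3 Cxcl12 Control kidneys were too few for this check.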

How the results depend on the processing

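The 202 genes became 467 without the filter on low counts, 860 with DESeq2, 316 with all 18 kidneys in the fit and 124 with correction for length and GC, and 23 to 523 when 1 kidney was left out. The cause was not tested. Genes that passed near the floxed loci (6) became 12 without the filter, 16 with DESeq2, 3 with limma-voom and 1 with the correction for length and GC, and 0 to 11 without 1 kidney. List genes that passed (28) became 62 without the filter, 76 with DESeq2 and 14 with limma-voom, and 3 to 56 without 1 kidney. Replicate numbers did not pair the kidneys, which came from separate crosses (r of deviations for shared numbers -0.136 to 0.0104). A fit with the replicate block gave 215 genes, 3 near the loci and 42 in lists. The log2 difference of *Myc* was -0.031 to 0.228 without 1 kidney, turning negative without Cxcl12 Control 1 and without Myc Control 1 (-0.02), and that of *Cxcl12* was -0.44 to -0.22. Genes with an SD of at least 0.5 were 308 when the SD was taken over all 8 kidneys, 898 with a mean of at least 1 CPM and 143 to 215 without 1 kidney. The pairs that passed fell from 1 to 0 after centring on group means, within Myc Control alone and without the 2 farthest kidneys (2, 4 and 3 at an unadjusted exact permutation p under 0.05), and stayed 1 without any 1 kidney. With 5 Myc Control kidneys the smallest exact permutation p is 0.00833, which adjusts to 0.125 for a lone pair, so that count says nothing of stability. The r of *Havcr1* and *Lcn2* was 0.038 without Myc Control 3 and 5. The alternative without Myc Control 1 and 3 was chosen after seeing the data. Counting error limits genes under 1 CPM, and intervals over 3 and 5 kidneys are wide.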
